A study of Homo sapiens with 8 samples.

Results

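Human chromosome 19 carries long clusters of zinc finger genes, and 368 of the 50599 non-control probes on the expression arrays used here measure them. These probes carry a gene name of ZNF followed by a digit and lie on chr19 in the hg19 build; they stand for 246 gene names. Another 435 probes bear ZNF names but lie elsewhere or have no chr19 position, and 2069 further probes lie on chr19 under other gene names. Most of the proteins belong to the KRAB family: a string of C2H2 zinc fingers reads DNA, often within retroelements, and the KRAB domain recruits TRIM28. TRIM28 in turn brings the histone methyltransferase SETDB1, HP1 proteins, the NuRD deacetylase complex and the HUSH complex, which together silence chromatin. Many members arose by tandem duplication, so that neighbours along the chromosome resemble each other in sequence, and promoters of several members are known to be methylated in tumours.

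The arrays measured RNA of DLD1 cells, a colorectal cancer line, on 8 single-colour Agilent arrays in 4 groups of 2. Cells received a control siRNA (siCONT) or an siRNA against UHRF1, the protein that brings DNMT1 to newly replicated DNA, for 48 h and then a mock treatment (ethanol) or trichostatin A (TSA, 300 nM), which blocks histone deacetylases, for 24 h. The 2 arrays of each UHRF1-depleted group came from 2 different siRNAs (siUHRF1-1 and siUHRF1-2), so that their spread includes the difference between siRNAs, and transient depletion in a single cell line is all that the design covers. The study asked whether UHRF1 depletion and histone deacetylase inhibition, alone or together, restore the expression of silenced genes.

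Levels are given on the log2 scale as the array signal minus the 75th percentile of that array, and levels of different probes cannot be set against each other. The share of all probes read well above background ranged over the arrays from 43.3% to 48.0%. The 2 siCONT arrays of each treatment differed by little more than the noise between replicate spots (ratios of 1.16 under mock and 1.08 under TSA, against 12.5 and 10.3 for the siRNA groups), so each pair was counted as 1 sample and has no SD; the count of members called in each comparison is given from a fit to all 8 arrays and from a fit with these pairs averaged. Nothing in the labels says that arrays came from separate cultures, and p-values therefore measure the spread between these arrays only. All mock arrays lay in 1 row of the slide and all TSA arrays in the other, so that treatment and slide row cannot be told apart. In each row the siCONT arrays lay in columns 1 and 2 and the siUHRF1 arrays in columns 3 and 4. Depletion and slide column therefore cannot be told apart either. UHRF1 itself, the depleted gene, had levels of 1.98 and 2.01 on the siCONT mock arrays, 0.34 and -0.02 on the siUHRF1 mock arrays, 1.04 and 1.01 on the siCONT TSA arrays, and -1.55 and -2.14 on the siUHRF1 TSA arrays, the lowest values being those of depletion plus TSA. All 8 colon epithelial markers were well above background on every array, whereas PTPRC and PECAM1 of blood and endothelial cells were above it on none. The levels of the 8 were not all steady. VIL1 and LGALS4 were called lower with TSA, in siCONT cells (lowest log2 change -3.57) and in depleted cells (-5.06). LGALS4 was also called lower under depletion plus TSA (-1.96), and higher with depletion, both under mock and within TSA. With the siCONT pairs averaged, 1 of the 8 was called for TSA in siCONT cells, 2 in depleted cells and 0 for depletion. VIM and COL1A1, markers of mesenchymal cells, were above background on TSA arrays only and rose there. The fitted log2 changes were 3.80 to 5.24 against mock, where neither gene was above background, so that their sizes are not measured. The part of these changes of markers in the results below was not tested.

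The sequences of the probes matter here because zinc finger genes repeat themselves. The short linker between neighbouring fingers is among the most conserved stretches of these proteins. A stretch of 15 bases that encodes it as TGEKP or TGERP, in a frame without a stop, occurred in 15 of the 368 members (4.08%). It occurred in 8 of the 435 other zinc finger probes and in 5 of the 49796 remaining probes. Shown are the probe of ZNF233, which rose in 3 comparisons below, and the probes of ZNF253, ZNF85 and ZNF729, neighbours in a cluster of 19p12 whose probes share long runs of bases. Capitals mark the linker, sequences run 5′ to 3′ as printed on the array, and positions are those of the files in hg19.
ZNF233, probe A_33_P3388822, chr19:44778614-44778673, plus strand: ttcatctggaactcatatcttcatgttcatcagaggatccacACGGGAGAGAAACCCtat
ZNF253, probe A_21_P0000650, chr19:20002774-20002833, plus strand: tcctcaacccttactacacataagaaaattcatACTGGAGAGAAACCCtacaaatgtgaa
ZNF85, probe A_23_P67702, chr19:21132382-21132441, plus strand: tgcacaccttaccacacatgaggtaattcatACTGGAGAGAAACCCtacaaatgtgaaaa
ZNF729, probe A_33_P3418611, chr19:22499726-22499785, plus strand: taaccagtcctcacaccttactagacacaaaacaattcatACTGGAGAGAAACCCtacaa
The probes of ZNF253 and ZNF85 shared an unbroken run of 34 bases, and those of ZNF253 and ZNF729 a run of 27 bases. Over all members, the longest run that a probe shared with a probe of another member gene had a median of 11 bases.

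Since UHRF1 acts on methylated CpG sites, the promoters give the second set of sequences. RefSeq sequences (GRCh38.p14, hg38) for the 250 bases before the start were found by symbol for 209 of the 246 genes. These held a median of 16 CpG dinucleotides, against 11 over the promoters of all 35116 genes in the same table, and 58.9% of member promoters held 15 or more, against 42.9% of all. Zinc finger genes on other chromosomes had a median of 18 (62.6% with 15 or more) and the other genes of chr19 one of 15 (50.8%). Shown with each CG in capitals are ZNF541, ZNF180 and ZNF91. ZNF541 had the largest fitted rise under the combination, and its promoter held the most CpG of any member (39). ZNF180 rose with either agent alone (24 CpG). ZNF91, a silencer of SVA elements, rose with TSA alone (7 CpG).
ZNF541, chr19:47573149-47573398, minus strand: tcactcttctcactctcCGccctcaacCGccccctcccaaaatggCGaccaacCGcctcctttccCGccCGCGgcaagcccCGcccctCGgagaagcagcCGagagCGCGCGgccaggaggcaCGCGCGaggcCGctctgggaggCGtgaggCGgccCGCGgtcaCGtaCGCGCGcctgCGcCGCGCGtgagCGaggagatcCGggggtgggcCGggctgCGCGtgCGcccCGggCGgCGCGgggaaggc
ZNF180, chr19:44500523-44500772, minus strand: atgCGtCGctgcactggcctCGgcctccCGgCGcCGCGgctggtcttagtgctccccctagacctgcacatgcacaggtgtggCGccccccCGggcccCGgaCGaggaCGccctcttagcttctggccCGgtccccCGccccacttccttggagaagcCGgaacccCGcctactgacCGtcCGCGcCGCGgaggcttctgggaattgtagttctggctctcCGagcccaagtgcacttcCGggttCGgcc
ZNF91, chr19:23395472-23395721, minus strand: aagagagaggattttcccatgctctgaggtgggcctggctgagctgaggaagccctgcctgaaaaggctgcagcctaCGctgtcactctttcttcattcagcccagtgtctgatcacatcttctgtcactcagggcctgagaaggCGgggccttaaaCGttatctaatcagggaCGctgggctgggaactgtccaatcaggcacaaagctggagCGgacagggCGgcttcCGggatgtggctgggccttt
The 6 genes that rose under depletion plus TSA and had a promoter in the table held a median of 13.5 CpG, the 20 that fell a median of 17, and the 120 that were tested and not called a median of 16. The number of CpG thus ran from 10 to 39 among those that rose and from 7 to 32 among those that fell, and the ranges overlapped. ZNF226, with opposite calls on its 2 probes, counts in both of these sets.

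The number of detected members differed little between groups. On both arrays of the group, 218 members (59.2%) were well above background in siCONT mock cells, 219 (59.5%) in siUHRF1 mock, 224 (60.9%) in siCONT TSA and 210 (57.1%) in siUHRF1 TSA. Over all probes the share went from 41.8% in siCONT mock to 45.3% under depletion plus TSA, which is the group with the fewest members above background and the most probes overall. In all, 195 members were above background on all 8 arrays, 57 on some and 116 on none, and 62 of the 246 genes had no probe above background on any array. The 2 siRNAs against UHRF1 differed by more than 2-fold at 5 of the 195 members under mock and at 2 under TSA. Among all 19900 probes above background on every array they did so at 935 and 616.

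UHRF1 depletion alone moved few members. Of 229 members tested, 3 rose and 3 fell (2.62%), where 4.12% of all 22396 probes tested were called, 3.13% higher and 0.987% lower; called means an adjusted p under 0.05 in limma, with Benjamini-Hochberg adjustment over all probes tested, and at least a 2-fold change. The probe of ZNF575, a member without a KRAB domain, read -0.91 and -1.17 on the siCONT mock arrays and -0.06 and 0.55 on the siUHRF1 mock arrays. The groups did not overlap, and the level rose by 1.28 on the log2 scale (SE 0.23, adjusted p = 0.0312 in limma). In bulk RNA such as this, fewer expressing cells and less RNA per cell cannot be told apart. ZNF527 went from -2.85 and -2.79 to -1.88 and -1.5 (log2 change 1.13, adjusted p = 0.0326), and ZNF180 from -1.51 and -1.72 to -0.49 and -0.57 (1.09, adjusted p = 0.0216). ZNF544 fell from 2.13 and 2.10 to 0.90 and 1.14 (log2 change -1.09, adjusted p = 0.0119), although a second probe of this gene had a change of 0.38 that was not called. The other falls were those of ZNF699 (-1.04, adjusted p = 0.0478) and ZNF584 (-1.02, adjusted p = 0.0317). With the siCONT arrays averaged, limma called 0 members and 0.0223% of all probes; 8 members then had an unadjusted p under 0.05 with a 2-fold change, and the adjusted p of these 6 genes lay between 0.353 and 0.512. Without the first and the second siCONT mock array the member median was 0.00 and 0.03, beside -0.10 for all probes in each. When 1 siCONT array of either treatment was left out, the count of members called fell to few or none, and that over all probes fell as well. Without the first siUHRF1 mock array it was 16 (6.99% of members tested, beside 8.47% of all probes). The split of calls depended on the scaling, with 6 rises and 1 fall when the 75th percentile was taken over detected probes, 4 and 2 after quantile normalization and 3 and 1 after median scaling.

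TSA in siCONT cells moved members in both directions. Of 235 members tested, 18 rose and 14 fell, in 27 genes (13.6% called, against 18.6% of all probes tested). Over all probes, 10.4% were called higher and 8.22% lower. The split moved with the scaling: 28 members were called higher and 8 lower with the 75th percentile taken over detected probes only, 14 and 15 after quantile normalization, and 16 and 16 after median scaling. The member median was -0.02, beside -0.11 over all probes tested. The averaged fit called 0 members, with 31 at an unadjusted p under 0.05 and a 2-fold change, and 1.56% of all probes; the adjusted p of the 10 genes named here was then 0.0983 to 0.233.

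The probes with the largest fitted rises lay at or below background in siCONT mock cells, so that most of their rises are lower bounds and have no order. That of ZNF233, printed above, was above background on neither siCONT mock array, with levels of -4.63 and -4.53, and on both siCONT TSA arrays, with -2.70 and -2.54, at least 1.71-fold higher (limma adjusted p = 0.0048). ZNF235 stood at least 2.04-fold higher, ZNF345 at least 1.42-fold and ZNF566 at least 1.53-fold, each above background on neither siCONT mock array and on both siCONT TSA arrays. ZNF181 was above background on 1 of the 2 siCONT mock arrays (fitted log2 change 1.78), and the adjusted p of these 4 ran from 0.0289 to 0.0367. ZNF345 read -5.10 and -3.78 in siCONT mock and -2.76 and -3.03 under TSA, and a second probe of it rose at least 1.82-fold. ZNF44 was measured well above background on every array and went from -1.53 and -1.22 to -0.13 and 0.04, a rise of 1.33. The largest fitted falls were those of ZNF28 (-1.88, adjusted p = 0.0060), ZNF792 (below background under TSA and at least 2.40-fold lower), ZNF846 (-1.54), ZNF584 (-1.48) and the ZNF816-ZNF321P readthrough (-1.43). ZNF584 is the gene that fell with UHRF1 depletion too, from levels of -1.71 and -2.07 to -2.76 and -3.06 under depletion and -3.31 and -3.43 under TSA. The values of these 2 comparisons share the siCONT mock arrays.

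UHRF1 depletion plus TSA, set against siCONT with mock, gave more falls than rises among members. Of 229 members tested, 9 rose and 24 fell, in 30 genes (14.4% called, against 25.6% of all probes). Over all probes tested, 14.5% were called higher and 11.1% lower, so that 3.93% of members rose beside a background of 14.5%, while 10.5% fell beside 11.1%. The median change was -0.18 for members and -0.14 for all probes, and 33.2% of members had a change above 0, against 42.8% of all probes. The other zinc finger probes, those elsewhere or without a chr19 position, had 19 rises and 33 falls among 314 tested, and the other probes of chr19 had 229 rises and 139 falls among 1210. With the siCONT arrays averaged, 4 members rose and 11 fell (15.4% of all probes called, 9.74% higher and 5.69% lower). The direction of the split held under each scaling, but its size did not. With the percentile over detected probes 12 members rose and 17 fell, after quantile normalization 7 and 38, and after median scaling 3 and 59. Under median scaling the median over all probes tested was -0.54, and 34.6% of all probes were called, against 27.1% of members.

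**Figure D1:**
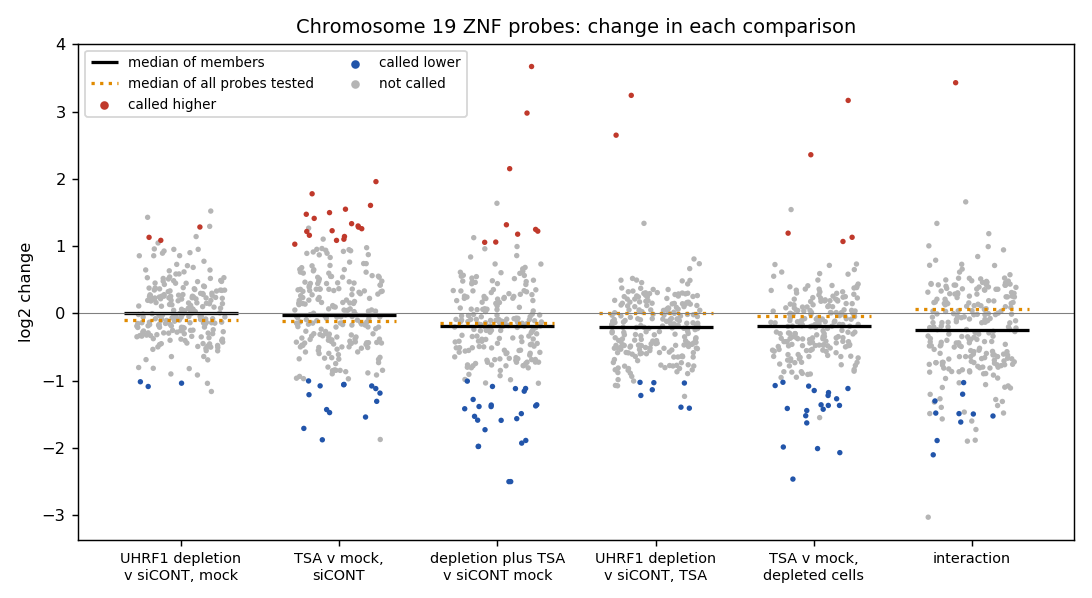
Change of each tested chromosome 19 ZNF probe (log2 change, vertical axis) in the 5 comparisons of 2 groups and the interaction (horizontal axis). Red and blue points were called higher or lower, grey points were not called, black lines are member medians and dotted orange lines the medians of all probes tested. Under depletion plus TSA 24 members lie among the blue points and 9 among the red, and the highest point is ZNF541 at 3.67.

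The largest fitted rise under the combination was that of ZNF541, a germ cell factor of meiosis that works with histone deacetylases. Its probe read -5.54 and -5.58 on the siCONT mock arrays, -4.19 and -4.30 on the siUHRF1 mock arrays, -4.84 and -4.24 on the siCONT TSA arrays and -1.47 and -2.30 on the siUHRF1 TSA arrays. It was well above background on the last pair only, which stood at least 2.85-fold above siCONT mock (fitted log2 change 3.67, SE 0.31, limma adjusted p = 0.0004; 0.0095 with the siCONT arrays averaged). ZNF114, its neighbour among the members along the chromosome, showed the same pattern. Its levels were -5.29 and -5.31, -5.63 and -5.34, -5.67 and -5.45, and then -1.71 and -2.93 under depletion plus TSA, at least 2.11-fold above siCONT mock (2.98, SE 0.38, adjusted p = 0.0016 and 0.0259 in the averaged limma fit). ZNF221 was the other member above background on these 2 arrays alone, with levels of -2.84 and -2.83 against -5.30 and -3.65 in siCONT mock; this stood at least 1.47-fold higher but was not called (adjusted p = 0.0725 in limma).

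ZNF233 stood at -2.50 and -2.36 under depletion plus TSA, at least 1.96-fold above siCONT mock (adjusted p = 0.0023 in limma), close to its level under TSA alone. ZNF44 (log2 change 1.25), ZNF726 (1.22), ZNF480 (1.18), ZNF527 (1.06) and ZNF780B rose as well, the last from below background on both siCONT mock arrays and at least 1.69-fold, with adjusted p between 0.0033 and 0.0226, and none of these 5 was called once the siCONT arrays were averaged. A second probe of ZNF44 had a change of -0.47 and one of ZNF726 a change of 0.25, neither called.

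Among the falls, ZNF587, a repressor of HERV-K elements, went from 2.61 and 2.66 in siCONT mock to 2.48 and 2.08 under depletion, 1.46 and 1.38 under TSA, and 0.46 and 0.85 under the combination. The last pair lay below all others (log2 change -1.98, SE 0.19, limma adjusted p = 0.0007; 0.0215 averaged), while a second probe had a change of -0.49. ZNF443 read -1.45 and -1.28 in siCONT mock, -1.02 and -1.60 under depletion, -1.91 and -1.85 under TSA, and -3.50 and -3.09 under the combination (-1.93, adjusted p = 0.0014, 0.0296 averaged). ZNF254 (-1.98) and the ZNF816-ZNF321P readthrough (-1.59) also kept their call in the averaged fit. The largest fitted falls, those of ZNF833P and ZNF160 (both -2.50), ended below background: ZNF833P went from -2.92 and -2.30 to -4.40 and -5.83, at least 1.91-fold lower (adjusted p = 0.0088), and ZNF160, a repressor of TLR4 in intestinal epithelial cells, was at least 1.61-fold lower with a large error (SE 0.84, adjusted p = 0.050). The other probes of ZNF160 changed by -0.80 and -0.50 without a call. Those of ZNF254 changed by 0.16, -0.09 and -1.73, the last of them called.

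Of the 33 members called under the combination, 18 (54.5%) were called for neither agent alone, 13 were called for TSA alone and 3 for depletion alone; these comparisons share the siCONT mock arrays. Over all probes the share called for neither agent alone was 46.7% of 6078, and 55.8% for the other zinc finger probes. The averaged fit called no member for either agent alone, so that its 15 calls under the combination stand by themselves. Over the 5 comparisons of 2 groups, 63 probes of 55 genes were called at least once, which is 26.0% of the 242 members tested in any of them, against 35.6% of all probes, and the averaged fit called 24 members (9.92%, against 21.0%).

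**Figure D2:**
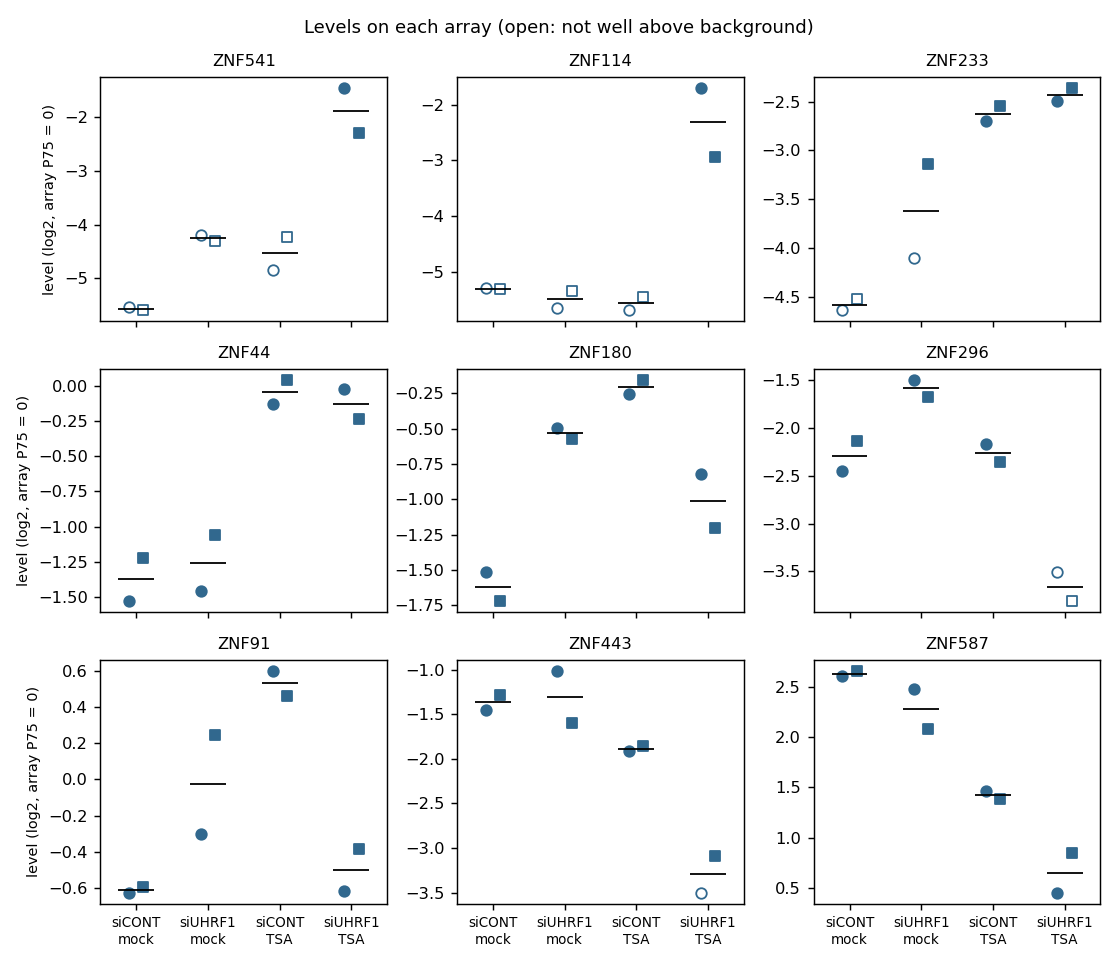
Level of 9 member probes (log2 of the signal, 75th percentile of the array at 0, vertical axis) on each array of the 4 groups. Circles are the first and squares the second array of a group, open symbols were not well above background and lines are the means of the 2 arrays. ZNF541 and ZNF114 have filled symbols under depletion plus TSA only, ZNF296 loses them there, and ZNF180 and ZNF91 are higher with each agent alone than with both.

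Within TSA-treated cells, UHRF1 depletion gave more falls than rises among members. Of 229 tested, 2 rose and 7 fell (3.93%, against 8.27% of all probes, 5.39% higher and 2.87% lower); ZNF114 and ZNF541 were the rises, at least 2.67-fold and 3.61-fold (limma adjusted p = 0.0064 for each). The member median was -0.21 beside 0.00 for all probes, and 32.3% of members had a change above 0, against 50.04% of all. ZNF443 (log2 change -1.41), ZNF430 (-1.22) and ZNF776 (-1.04) fell. A second probe of ZNF430 had a change of -0.22 and one of ZNF776 a change of -0.52, neither called. ZNF296, a factor without a KRAB domain, went from -2.17 and -2.36 on the siCONT TSA arrays to -3.50 and -3.81, below background and at least 2.43-fold lower (adjusted p = 0.0079). The averaged fit called 0 of these members, 10 having an unadjusted p under 0.05 and a 2-fold change, and 0.692% of all probes. The falls lost their call when either siCONT TSA array was left out, so that these calls rest on having both arrays. Calls over all probes became fewer as well. The member median was -0.20 without the first of these arrays and -0.22 without the second, beside 0.01 and -0.01 for all probes. Other scalings gave 2 rises each, with 4 falls for the percentile over detected probes and 29 for median scaling. Under median scaling 13.5% of members and 12.6% of all probes were called. Other chr19 probes went the opposite way, with 105 rises and 20 falls among 1208, whereas the other zinc finger probes had 1 rise and 13 falls among 323.

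The effect of TSA within UHRF1-depleted cells rests on siRNA arrays alone, and here averaging the siCONT arrays changed little. Of 227 members tested, 5 rose and 20 fell (11.0%, against 20.7% of all probes, 11.7% higher and 9.01% lower), and the averaged fit called 3 rises and 16 falls (10.1% and 7.56% of all probes). Quantile normalization gave 3 rises and 30 falls, and median scaling 2 and 49. These are 14.5% and 22.5% of members, against 21.3% and 28.2% of all probes. ZNF114 (at least 2.43-fold), ZNF541 (at least 3.28-fold), ZNF233, ZNF44 and ZNF726 rose. ZNF833P, ZNF296 (at least 3.88-fold lower, limma adjusted p = 0.0006), ZNF551, ZNF443 and ZNF587 had the largest falls. The 2 estimates of the TSA effect, in siCONT and in depleted cells, share no array. Both called 8 of the same probes in the same direction (25% of 32 and 32.0% of 25), where over all probes the shared calls made up 54.1% and 47.2%, and in the averaged fit none were shared, TSA in siCONT calling no member. Among the 8 were ZNF233 and ZNF44 as rises and ZNF587, ZNF792, ZNF254 and ZNF324B as falls. Over the 195 members above background on all arrays, 118 (60.5%) had the same sign in both, against 69.6% of all such probes, and the correlation across probes was 0.45 (0.67 for all). The 2 estimates of the UHRF1 effect, under mock and under TSA, called 6 and 9 members and shared none, where over all probes 255 were shared (27.6% of 923 and 12.9% of 1971); in the averaged fit neither called a member. They had the same sign in 82 of the 195 members (42.1%), against 54.8% of all such probes, with a correlation of -0.05 (0.26 for all). Probes are not independent replicates, and these figures are descriptions.

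The difference between the 2 UHRF1 effects was tested directly as the interaction of depletion and TSA. Among 242 members, 1 was higher and 10 were lower than the sum of the separate effects (4.55% called, against 4.89% of all probes, 2.83% higher and 2.07% lower). The member median was -0.24, the same as for the other zinc finger probes, beside 0.06 for all probes and 0.24 for the other probes of chr19. ZNF180 shows the pattern: it read -1.51 and -1.72 in siCONT mock, -0.49 and -0.57 with depletion, -0.26 and -0.15 with TSA, and -0.82 and -1.20 with both (interaction -1.89, SE 0.23, limma adjusted p = 0.0195). ZNF91 read -0.63 and -0.60, then -0.30 and 0.25, then 0.60 and 0.46, and then -0.62 and -0.38, so that the levels under both agents overlapped those of siCONT mock (-1.62, adjusted p = 0.0357). ZNF45 (-1.53) and ZNF296 (fitted -2.11, below background under both agents) were called in the same direction. ZNF114 was the single member called higher (fitted 3.43, SE 0.54, adjusted p = 0.0285); it was above background on the siUHRF1 TSA arrays alone, so the size of its interaction is not measured. The averaged fit called 0 members and 0 of all probes, with 20 members at an unadjusted p under 0.05 and a 2-fold interaction. The count was also 0 without any one siCONT array, 20 and 22 without the first and second siUHRF1 mock array, and 6 without the first siUHRF1 TSA array. In the order of these siUHRF1 arrays, 8.06%, 11.5% and 3.44% of all probes were called, against 8.26%, 9.09% and 2.48% of members.

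Along the chromosome, member genes fell into 9 blocks of at least 5 genes with gaps of no more than 1 Mb, and 11 genes lay outside them. All positions are hg19. The blocks ran from ZNF554 to ZNF77 on the short arm (block 1, chr19:2836674-2934392, 5 genes) to ZNF628 to ZNF446 at the end of the long arm (block 9, chr19:55995696-58992591, 59 genes). The largest of the others were block 3 (ZNF653 to ZNF791, chr19:11596540-12740240, 26 genes), block 4 in 19p12 (ZNF101 to ZNF254, chr19:19790730-24312487, 34 genes), block 6 (ZNF565 to ZNF573, chr19:36673459-38229314, 26 genes) and block 8 (ZNF175 to ZNF331, chr19:52092551-54083467, 41 genes).

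Block 6 had the highest block median under TSA in the fit to 8 arrays. In siCONT cells 5 of its 23 tested probes rose, where 10.4% of all probes tested were called higher, and 0 fell; the averaged fit called 0 of the 23. In all, 20 of 23 changes were above 0, and the median was 0.65, beside -0.11 for all probes tested. The rises were 2 probes of ZNF345 and those of ZNF420, ZNF566 and ZNF567. ZNF567 read -1.27 and -1.37 in siCONT mock and -0.09 and -0.11 with TSA (log2 change 1.22, limma adjusted p = 0.0035), and then -1.13 and -1.13 with both agents, which is close to siCONT mock. The block median was 0.68 from the first array of each group and 0.61 from the second, and 0.62 to 0.67 when any array was left out, but 0.19 after normexp background correction, below the 0.21 of block 2, and 0.20 with no filter on dim probes, where blocks 2 and 7 both stood at 0.21. Under depletion plus TSA it was 0.35, with 16 of 21 changes above 0 and 1 rise and 1 fall called (0 in the averaged fit). ZNF260, ZNF420 and ZNF567 had interactions below 0 that passed the test with 8 arrays (3 of 23, beside 2.07% of all probes called lower) and did not with the siCONT arrays averaged, and the median interaction was -0.43.

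The other blocks moved less or downward. Block 7 (ZNF575 to ZNF296, 23 genes) had a median of 0.36 under TSA and of 0.06 under the combination. Under TSA it had 4 rises and 1 fall among 23 tested, beside 10.4% of all probes called higher and 8.22% lower. In block 3, 3 of 27 changes under the combination were above 0, for a median of -0.43. ZNF136, ZNF443, ZNF563, ZNF799 and ZNF833P fell there while ZNF44 rose, beside 14.5% of all probes called higher and 11.1% lower. Block 8 had 2 rises and 6 falls among 40 under TSA, where 8.22% of all probes were called lower. Block 9 had 0 rises and 6 falls among 51 under the combination, a share close to the 11.1% of all probes called lower. With the siCONT arrays averaged, blocks 7 and 8 kept 0 calls under TSA, and blocks 3 and 9 kept 1 and 3 under the combination. All 5 tested probes of block 1 had changes below 0 under TSA and under the combination, none of them called. Depletion alone gave block medians between -0.10 and 0.45, where the highest, that of block 5, rested on 5 probes.

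**Figure D3:**
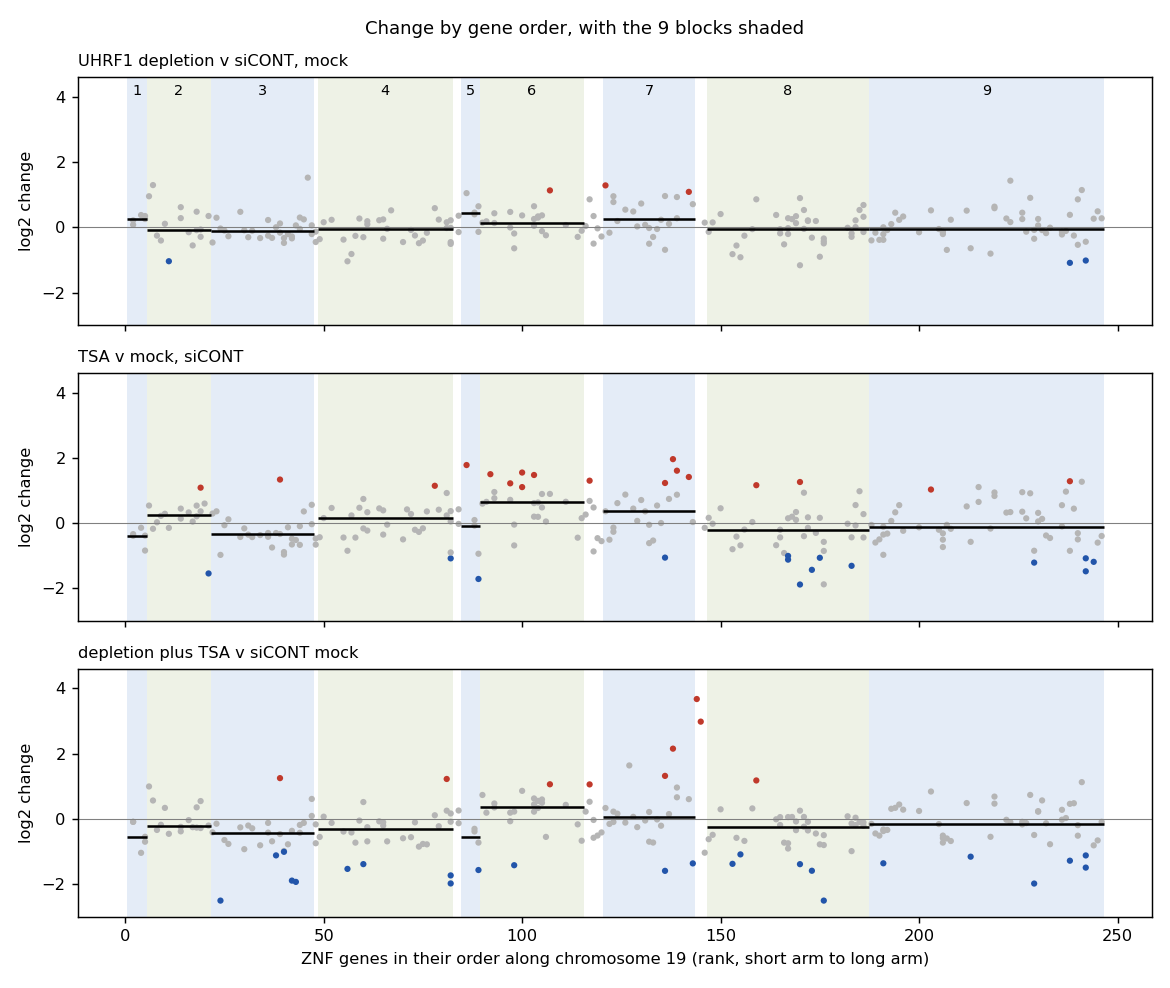
Change of each tested member (log2 change, vertical axis) by the order of the genes along chromosome 19 (horizontal axis, rank), for depletion alone (top), TSA alone (middle) and both (bottom). Shading marks the 9 blocks, black lines their medians, red and blue points calls. Block 6 lies above 0 under TSA with a median of 0.65, and the pair of high points between blocks 7 and 8 in the bottom panel is ZNF541 and ZNF114.

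**Figure D4:**
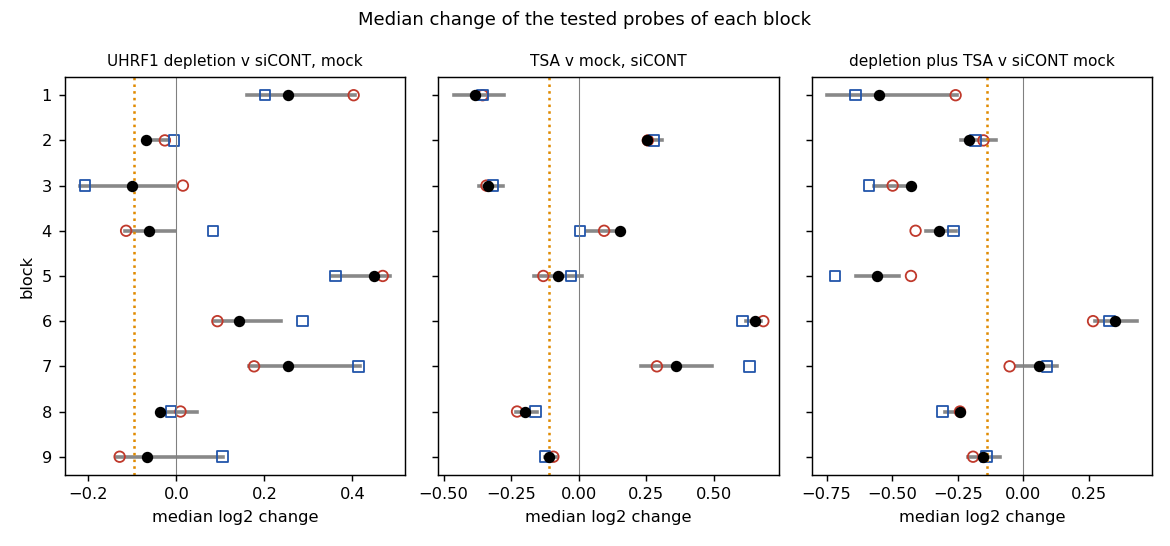
Median log2 change of the tested probes of each block (horizontal axis) for the same 3 comparisons. Black points use all arrays, red circles the first and blue squares the second array of each group, grey bars give the range when any array is left out, and dotted lines mark the median of all probes tested. Block 6 under TSA stays between 0.62 and 0.67 in the grey bar.

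Direct neighbours showed little likeness, and neighbours among other genes were not measured for comparison. Across 156, 159 and 155 pairs of adjacent genes no more than 1 Mb apart, the changes of the 2 neighbours had correlations of 0.11 under depletion, 0.09 under TSA and 0.28 under both. Adjacent genes can share sequence as well as position, so these pairs are no independent points. Neighbours called together in the fit to 8 arrays were few: ZNF541 and ZNF114 both rose under the combination, ZNF584 and ZNF324B both fell under TSA, and ZNF44 rose between ZNF136 and ZNF563, which fell.

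The probes of block 4 divided by their sequence. Shared runs of 20 or more bases with a probe of another member gene were found for 22 of the 368 members; the group was defined after the values had been seen. The largest linked family held 14 probes of 14 genes, all in 19p12, among them ZNF253, ZNF85 and ZNF729 printed above, and 10 of these were above background on every array. ZNF253 read 3.36 and 3.27 in siCONT mock, 3.51 and 3.58 with depletion, 3.80 and 3.76 with TSA, and 3.08 and 3.31 with both. ZNF85 read 1.96 and 1.83, 2.21 and 2.12, 2.38 and 2.35, and 1.72 and 1.96. In both genes TSA alone gave the highest levels.

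The changes of these 10 probes lay closest together for depletion within TSA and for TSA within depleted cells, with an SD of 0.11 among probes in each. Depletion within TSA gave a median of -0.59 (range -0.84 to -0.45), and TSA within depleted cells one of -0.35 (-0.64 to -0.29). The medians were 0.22 under depletion, 0.38 under TSA and -0.17 under both, with wider SDs of 0.22, 0.22 and 0.27. Under TSA ZNF429 (-0.05) and ZNF99 (-0.16) lay apart from the others, which ran from 0.28 to 0.47. Another 14 probes of the block were above background everywhere, and 4 of them share runs in pairs of their own. For depletion within TSA these 14 had an SD of 0.46 and a median of -0.09. Their SD was 0.60 for TSA within depleted cells, and 0.31, 0.58 and 0.73 under depletion, TSA and both. Under TSA the median of block 4 was 0.15 with all 31 tested probes and -0.23 without those of this family (19 probes). The ZNF91 subfamily of 19p12, 31 genes on the array of which 22 were above background somewhere, had a median of 0.28 under TSA that became -0.21 without the probes of the family (9 of 21 left). Its median for depletion within TSA went from -0.59 to -0.09 in the same way. Whether transcripts of one gene bound the probe of another was not tested.

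**Figure D5:**
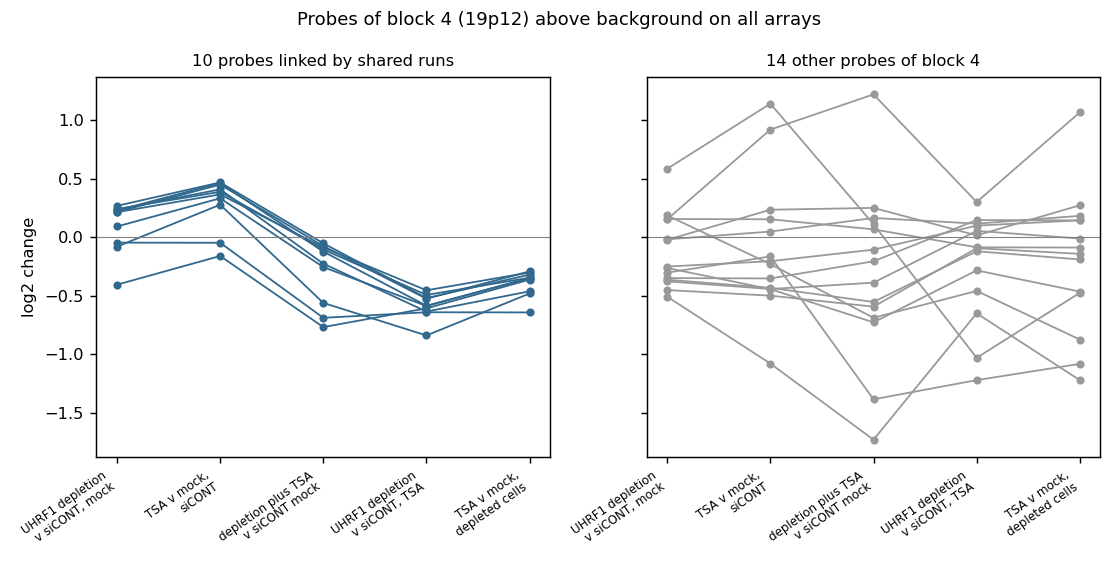
Log2 change (vertical axis) in the 5 comparisons of 2 groups (horizontal axis) for probes of block 4 above background on all arrays. Each line is a probe: left, the 10 of the family linked by shared runs of bases, and right, the 14 others. The left lines run closest together for depletion within TSA and TSA within depleted cells, with an SD of 0.11 in each, against 0.46 and 0.60 on the right.

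Different probes of 1 gene can also part. Of 52 genes with several tested probes, the changes under the combination spanned a median of 0.35 on the log2 scale. The span exceeded 1 for 11 genes, and for 18 genes the signs were opposite. ZNF226 was the 1 gene with opposite calls: a probe at 4.45 and 4.51 in siCONT mock fell to 2.91 and 2.86 (log2 change -1.59, limma adjusted p = 0.0002), whereas another rose from 1.33 and 1.4 to 2.66 and 2.70 (1.32). The groups of neither probe overlapped. Under TSA the same held for ZNF28, where the probe that fell by 1.88 stood beside one that rose by 1.26, and the second shared a run of 23 bases with a probe of ZNF761, whose change was 0.98. The probes of ZNF226 parted under TSA as well (-1.06 and 1.23). These genes were singled out after their values were seen.

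By known role, members linked to tumour methylation were mostly dark. Of 10 such genes on the array, including ZNF154, ZNF177, ZNF331, ZNF582 and ZNF671, 8 were above background on no array of any group, with levels between -5.98 and -3.79. ZNF382 was above background on 1 array only, the second of siCONT TSA, at -1.88, with -5.97 on the first and no more than -5.50 on all others. ZNF418 was above background on all 8 arrays, from -1.5 to -1.07, and its change was called in no comparison (-0.14 under the combination). Of the 6 genes on the array whose products bind retroelements, ZNF91, ZNF765, ZNF417 and ZNF587 were above background and ZNF93 and ZNF649 were not. On the brightest probe of each, ZNF91 alone was called, higher under TSA (1.14) and lower for depletion within TSA (-1.03), and in the averaged fit in neither; the probe of ZNF587 that fell, described above, is the other of its 2 probes.

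In the ZNF91 subfamily, on the brightest probe of each gene, ZNF430 and ZNF486 fell under the combination, 2 of 20 tested beside 11.1% of all probes called lower. ZNF91, ZNF430 and ZNF728 fell with depletion within TSA, 3 of 19 beside 2.87%. The averaged fit kept 1 of the 2 and 0 of the 3. On other probes of the subfamily, ZNF254 was called lower (-1.98) and ZNF726 higher (1.22) under the combination. A second probe of ZNF430 had fitted changes of 0.52 under the combination and -0.22 for depletion within TSA, neither called. All 22 members listed as lacking a KRAB domain were above background in some group. ZNF575 rose with depletion, and ZNF541 rose and ZNF296 fell under the combination, while the median of the list was -0.15, near the -0.14 of all probes. The partners of KRAB proteins were measured throughout, 19 of 19 above background. DNMT3B was called higher with depletion, under mock and within TSA, where 3.13% and 5.39% of all probes were called higher. The averaged fit called it in neither. Under the combination CBX5 (an HP1 protein, -2.54), CHD3 (a NuRD remodeller, -2.42), DNMT1 (-1.28) and the depleted UHRF1 fell, and none was called higher. These are 4 of 19, the siRNA target among them, beside 11.1% of all probes called lower. The median of the list was -0.53 (-0.93 to -0.29 over the scalings and background corrections). With TSA alone in siCONT cells it was -0.46. There CBX5 and CHD3 were called lower too in the fit to 8 arrays, 2 of 19 beside 8.22% of all probes. TRIM28 went from 4.37 and 4.42 in siCONT mock to 3.64 and 3.95, a change of -0.60 that was not called, and SETDB1 had a change of -0.66.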

How the data were processed

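RNA was hybridized to Agilent SurePrint G3 arrays in a single colour. The files deposited by the authors hold linear spot intensities, which Agilent Feature Extraction (version 10.7 per the labels) had background-subtracted and detrended within each array but not scaled between arrays; probe positions are hg19. Control and outlier spots were left out, spots of a probe were averaged, and log2 intensities were centred on each array's 75th percentile. Tested probes, those that exceeded background clearly on each array of some group compared, were fitted as 4 group means over the 8 arrays with limma 3.58.1 in R 4.3.3 and moderated by eBayes, with Benjamini-Hochberg adjustment over all probes tested; calls needed an adjusted p under 0.05 and a 2-fold change. The number of arrays limits the precision. The fit was tested on simulated data. A bound ("at least") sets the brighter group against the lowest signal above background. Numbers of the siRNAs pair arrays only between the siUHRF1 groups (correlation of deviations 0.34). Named genes are the called members with the largest rises and falls (up to 8 of each for the combination, 5 for the other comparisons of 2 groups and 4 for the interaction), and genes of lists of known role. Members and lists were chosen with earlier results of these data known. Tables and figures were made with Python 3.11.15, pandas 2.3.3 and matplotlib 3.10.9.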

Additional observations from a re-analysis of the deposited data

Results flagged for a closer look

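By the interaction term the effect of UHRF1 depletion differed between mock-treated and TSA-treated cells for 11 members (4.55%, beside 4.89% of all probes). Of these, 6 are described here. ZNF114 was above background on the siUHRF1 TSA arrays alone, at least 2.67-fold over siCONT TSA; under mock both groups lay below background, so there is no depletion effect to set beside it, and its fitted interaction (3.43, SE 0.54, limma adjusted p = 0.0285) is not a measured size. The other 5 of the 6 were higher with depletion under mock by point estimate and lower under TSA. ZNF296 had an effect of 0.71 under mock and fell below background under TSA, at least 2.43-fold lower (fitted interaction -2.11, limma adjusted p = 0.0193). For ZNF180 the effect went from 1.09 to -0.81 (-1.89, adjusted p = 0.0195) and for ZNF91 from 0.59 to -1.03 (-1.62, adjusted p = 0.0357). ZNF45 went from 0.54 to -0.99 (-1.53, limma adjusted p = 0.0213) and ZNF776 from 0.45 to -1.04 (-1.48, adjusted p = 0.0418). With the siCONT arrays averaged to 1 sample per treatment, none of the 6 was called, and their adjusted p in limma ran from 0.308 to 0.482.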

How the results depend on the processing

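No named result changed direction: of 983 values for 54 named results under the alternatives, 666 kept their call and 317 lost it, most often after normexp background correction (47 of 54), with the methods' t-test after Benjamini-Hochberg adjustment (42 of 49) and with the siCONT arrays averaged (38 of 54). Counts of called members moved more, and those over all probes moved as well. For both agents 25.6% of all probes were called in the main fit, 34.6% after median scaling and 11.1% after normexp. The matching shares of members were 14.4%, 27.1% and 2.18%. For depletion alone without the first siUHRF1 mock array, 8.47% of all probes and 6.99% of members were called. The member counts are given in the order depletion alone (6), TSA alone (32), both (33), depletion within TSA (9), TSA within depletion (25) and interaction (11). Averaging the siCONT arrays gave 0, 0, 15, 0, 19 and 0. Normexp gave 1, 5, 5, 0, 2 and 6; median scaling 4, 32, 62, 31, 51 and 23; quantile normalization 6, 29, 45, 15, 33 and 11. Requiring signal above background on all arrays gave 4, 20, 18, 5, 15 and 10, and no filter 1, 25, 32, 6, 20 and 0. The methods' t-test, which has no interaction, gave 6, 24, 29, 11 and 14 unadjusted and 0, 21, 7, 0 and 0 after Benjamini-Hochberg adjustment. Leaving out each array in turn gave 0 to 16, 22 to 33, 25 to 36, 1 to 13, 20 to 24 and 0 to 22; the count for depletion alone was 0 without either siCONT mock array, and that for the interaction was 0 without any one siCONT array. With the siRNA number as a replicate block the counts were 5, 31, 34, 10, 24 and 7; the siUHRF1 arrays of 1 siRNA deviated together, while the siCONT numbers shared only a number (correlations -0.06 to 0.07). Without any one siCONT array, calls over all probes for depletion alone and for the interaction became fewer as well. The cause of these moves was not tested, apart from the smaller set of probes or samples that some alternatives use. The gap between the member median and that of all probes was -0.31 for the interaction under each scaling by a percentile or the median, -0.33 after quantile normalization and -0.11 after normexp. The alternative without the largest linked family of 19p12 was chosen after seeing the data. Signals near background limit what can be said of the 116 members never above it.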
